A study of Mus musculus with 4 samples.

Results

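Aminoacyl-tRNA synthetases are the enzymes that join each amino acid to its tRNA, the step that sets the genetic code. The set described here was chosen by gene symbol and holds 36 of the 24428 genes counted, 20 for the cytosolic enzymes and 16 for the enzymes that work in mitochondria. All 36 passed the filter on low counts. They were followed in mouse 129SvEv embryonic stem cells, passage 15-20, whose Smarca4 gene carries loxP sites on both copies and can be cut by the tamoxifen-activated recombinase CreER. BRG1, the Smarca4 product, is the ATPase motor of BAF chromatin remodelling complexes. Cells grew in serum and LIF and received ethanol (n = 2 libraries) or 0.8 uM 4-hydroxytamoxifen (n = 2) for 48 h, and poly(A) RNA was taken 72 h after the start. All 4 libraries carry the same genotype label for acute Smarca4 deletion, so the groups rest on the titles and treatment labels, and every comparison is of tamoxifen-treated with ethanol-treated cells of this genotype. No source used here gives the promoter that drives CreER or the number of clones, and tamoxifen-treated cells without loxP sites were not analysed here, so deletion, drug and active Cre cannot be told apart.

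Mammalian cells keep separate sets of synthetases for cytosolic and mitochondrial protein synthesis, both encoded in the nucleus. Most mitochondrial enzymes have a gene of their own, marked by a 2 at the end of the symbol, whereas Gars and Kars each make both a cytosolic and a mitochondrial enzyme. In the cytosol, several synthetases are held in a multisynthetase complex with the scaffold proteins encoded by Aimp1, Aimp2 and Eef1e1. Many cytosolic synthetase genes are induced by ATF4, the transcription factor of the amino acid starvation response.

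The libraries held 13458463 to 27086142 reads in genes. Reads that fell in no gene moved with the treatment, at 51.7 and 40.8% with ethanol and 37.6 and 35.0% with tamoxifen, with ethanol replicate 1 farthest from the others; the part of this in the results was not tested. Smarca4 fell from 328 and 409 CPM in the ethanol libraries to 68.5 and 68.7 CPM in the tamoxifen libraries, where CPM are counts scaled to a common library size with TMM factors (log2 fold change -2.43 ± 0.17, SE; edgeR quasi-likelihood test, adjusted p = 1.08e-05). Whether the remaining reads come from exons left after deletion or from undeleted copies cannot be told from a count per gene. For the marker counts that follow, the shares over all tested genes were 21.5% higher and 22.9% lower (edgeR adjusted p under 0.05). Of 12 pluripotency markers, 2 were higher and 3 lower, and their summed level was 5710 to 5840 CPM with ethanol and 5590 to 5920 CPM with tamoxifen; Tcl1 (-1.17) and Fgf4 (-0.93) were lower and Klf4 higher (0.62 log2; 0.35 and not called once the GC trend described below was removed). Fibroblast markers were higher in 17 of 23 tested cases and lower in none, with the smallest adjusted p for Col6a3 (1.82 log2), Col6a1 (1.88) and Fbln2 (1.49), and their sum over 25 genes rose from 669 to 794 CPM with ethanol to 1500 to 1630 CPM with tamoxifen. Of the 25, 1 gene was at 0 in an ethanol library. Primitive endoderm markers were higher in 3 and lower in 1 of 14 cases, with Foxa2 (1.39) and Amn (0.90; 0.14 and not called with the GC trend removed, 0.63 and not called without tamoxifen replicate 2) higher and Afp (-1.85) lower. The part of other cell types in the synthetase results was not tested, and in bulk RNA fewer cells of a type and less RNA per cell cannot be told apart. Whether replicate libraries are separate cultures is not in the labels; p-values therefore cover only the spread between these libraries, which may be technical.

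Cytosolic synthetase transcripts were far more abundant than mitochondrial ones. Per kilobase of transcript, the cytosolic genes ranged from 19.9 CPM per kb (Farsa) to 305 CPM per kb (Kars) with ethanol, with a median of 76. The mitochondrial genes ranged from 0.789 CPM per kb (Mars2) to 49.7 CPM per kb (Lars2), with a median of 6.02. Lars2, for mitochondrial leucyl-tRNA synthetase, was thus the highest of its class, and Yars2 (24.8) and Rars2 (23.7) followed. The annotated transcript of Mars2 has 11294 bases for a coding sequence of 1758, which lowers its level per length. Counts of a cytosolic gene in a library lay between 539 and 24631 reads and those of a mitochondrial gene between 79 and 5284, so the error of the mitochondrial values rests on fewer reads.

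**Figure D1:**
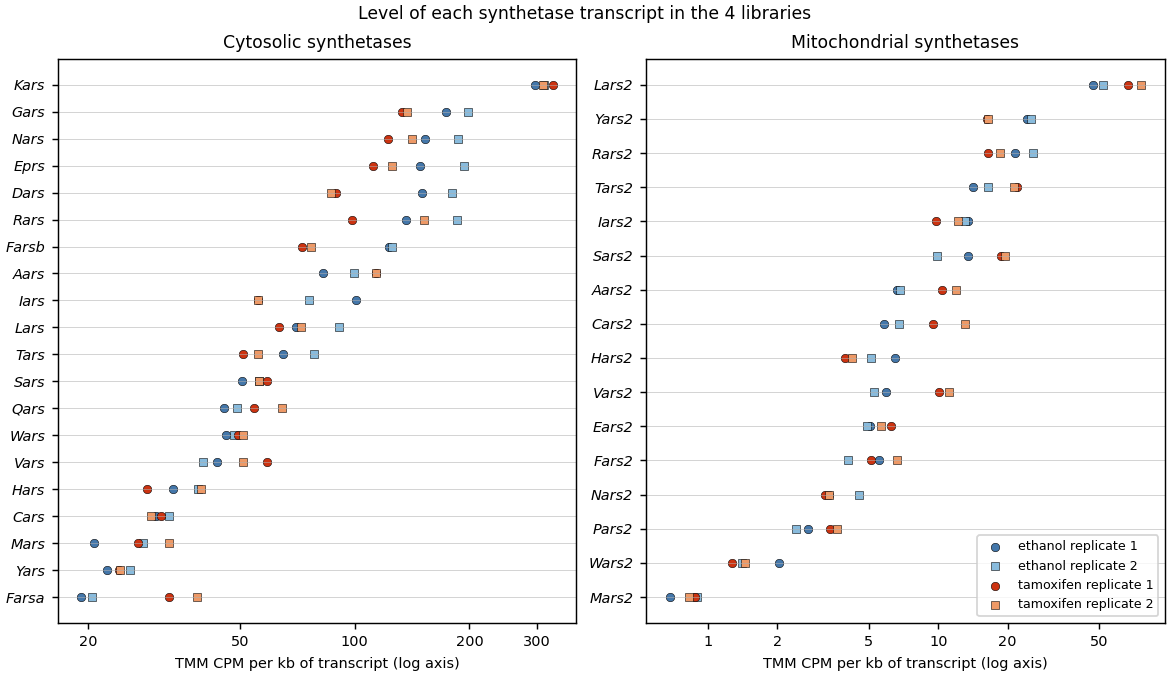
Level of each synthetase transcript (y axis) in the 4 libraries, as TMM CPM per kilobase of transcript on a log axis; circles are replicate 1 and squares replicate 2. Cytosolic genes span 19.9 to 305 CPM per kb with ethanol and mitochondrial genes 0.789 to 49.7, and both tamoxifen points lie left of both ethanol points for Dars, Farsb and Yars2 and right of them for Farsa, Vars2 and Lars2.

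RefSeq promoter windows (build GRCm38.p6, 250 bases before to 50 after the start) matched 27 of the 36 genes, 13 cytosolic and 14 mitochondrial. The element bound by ATF4 with C/EBP partners (TGATGNAA, either strand) was found in 5 of 13 cytosolic genes (38.5%), 0 of 14 mitochondrial genes and 3.97% of all 32851 windows of 300 bases. The E-box CACGTG, the site of MYC and related factors, was in 4 of 13 cytosolic genes, 1 of 14 mitochondrial genes and 7.15% of all windows, and no match overlapped another. The palindromic consensus of NRF1, a regulator of nuclear genes for mitochondria, was in none of the 27 genes, against 0.971% of all windows. A match is a description of letters and not evidence of binding. The 5 genes with the ATF4 element are shown because the response of ATF4 targets bears on this family; each line runs from 150 bases before to 30 after the start, 5′ to 3′ in the direction of the gene, with capitals for the ATF4 element (TGATGNAA or its reverse complement) and the E-box.
Aars (chr8:111033692-111033871, plus strand): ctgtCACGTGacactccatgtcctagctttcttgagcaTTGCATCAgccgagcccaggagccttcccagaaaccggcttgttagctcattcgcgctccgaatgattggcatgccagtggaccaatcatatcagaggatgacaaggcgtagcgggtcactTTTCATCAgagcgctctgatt
Gars (chr6:55037851-55038030, plus strand): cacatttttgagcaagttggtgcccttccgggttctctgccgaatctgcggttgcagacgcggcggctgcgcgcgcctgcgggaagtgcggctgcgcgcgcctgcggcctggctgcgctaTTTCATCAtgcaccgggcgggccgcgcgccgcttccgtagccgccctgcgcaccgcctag
Iars (chr13:49681980-49682159, plus strand): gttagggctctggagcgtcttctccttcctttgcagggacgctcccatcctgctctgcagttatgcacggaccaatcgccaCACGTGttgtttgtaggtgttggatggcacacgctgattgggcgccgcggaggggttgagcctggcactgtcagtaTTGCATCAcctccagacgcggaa
Tars (chr15:11399629-11399808, minus strand): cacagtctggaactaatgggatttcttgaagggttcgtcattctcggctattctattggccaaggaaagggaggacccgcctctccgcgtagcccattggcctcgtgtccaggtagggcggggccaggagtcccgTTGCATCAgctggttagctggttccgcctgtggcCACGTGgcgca
Yars (chr4:129189753-129189932, plus strand): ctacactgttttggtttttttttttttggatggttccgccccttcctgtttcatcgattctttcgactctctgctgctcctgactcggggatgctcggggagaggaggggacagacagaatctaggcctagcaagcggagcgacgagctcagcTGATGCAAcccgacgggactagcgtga
Aars holds the ATF4 element at 2 places and Iars, Tars and Aars also hold an E-box. With tamoxifen, Gars, Iars and Tars of these 5 were lower, against 22.9% of all tested genes, and Aars and Yars did not pass the test, as the values below show. With the transcript GC trend described below removed, Iars (-0.50) stayed called and Gars (-0.43) and Tars (-0.15) did not. With the GC trend of the coding sequence removed, none of them was called (Iars -0.40, Gars -0.30, Tars -0.18). A link between the element and these changes was not tested.

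With tamoxifen, 1 of the 20 cytosolic synthetases rose and 6 fell, against 21.5% of all 14479 tested genes higher and 22.9% lower, 44.5% together (edgeR quasi-likelihood test, Benjamini-Hochberg adjusted p under 0.05 over all tested genes). The shares of the cytosolic class are thus 1 and 6 of 20, and the 13 others did not pass. The median log2 fold change was -0.07, against -0.01 over all tested genes. The groups did not overlap in CPM for 12 of the 20, against 74.0% of all tested genes (37.0% in each direction). Among the 13 synthetases often listed as ATF4 targets, 0 rose and 4 fell, with a median of -0.05. By structural class, 1 of 9 class I enzymes was lower (median 0.00) and 4 of 10 class II enzymes were lower and 1 higher (median -0.23). With the GC trend described below removed, each class had 1 gene lower, 0 higher and a median of -0.11. The shares over all tested genes were then 9.85% lower and 9.93% higher. Eprs, which joins a class I and a class II domain, was left out of this split.

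The enzymes of the multisynthetase complex held 3 of the decreases. Of its 8 synthetases Dars, Eprs and Iars fell, none rose, and the median log2 fold change was -0.31, against 22.9% of all tested genes lower. With the GC trend removed 1 of the 8 was lower, against 9.85% of all tested genes, and the median was -0.02. Dars, for aspartyl-tRNA synthetase, went from 327 and 392 CPM with ethanol to 194 and 189 with tamoxifen. The groups were well apart, a 1.88-fold decrease (log2 fold change -0.91 ± 0.16, SE; edgeR adjusted p = 0.000892), the largest among the 36 genes. Eprs, the fused glutamyl- and prolyl-tRNA synthetase, had 727 and 946 CPM with ethanol and 551 and 612 with tamoxifen (-0.52 ± 0.17; edgeR adjusted p = 0.0252). Iars, for isoleucyl-tRNA synthetase, had 445 and 336 CPM with ethanol and 246 and 247 with tamoxifen, so that the ethanol libraries differed more between themselves than the tamoxifen libraries did (-0.66 ± 0.17; edgeR adjusted p = 0.00767). Kars, Qars, Mars, Lars and Rars did not pass. Kars, the lysyl enzyme that also supplies mitochondria and the most abundant per length, stayed between 652 and 724 CPM in all 4 libraries (0.08 ± 0.15). Rars, the arginyl enzyme, was the least even, with 287 and 392 CPM against 208 and 321, and its groups overlapped (-0.36 ± 0.22).

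Among the scaffold genes, Eef1e1 had 191 and 162 CPM with ethanol and 120 and 128 with tamoxifen (log2 fold change -0.51 ± 0.15, SE; edgeR adjusted p = 0.0169). Its call ended without tamoxifen replicate 1 (-0.46) or 2 (-0.56) and with total counts (-0.38). Aimp1 (-0.30 ± 0.23) and Aimp2 (0.04 ± 0.16) did not pass, though Aimp1 was called lower without ethanol replicate 1 (-0.50) or tamoxifen replicate 2 (-0.67).

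Of the 12 cytosolic synthetases outside the complex, Farsa rose and Farsb, Gars and Tars fell. Farsa and Farsb encode the alpha and beta subunits of the same enzyme, phenylalanyl-tRNA synthetase, and they moved in opposite directions. Farsa went from 35.1 and 37.5 CPM with ethanol to 59.4 and 70.3 with tamoxifen (1.79-fold; log2 fold change 0.84 ± 0.15, SE; edgeR adjusted p = 0.00119). Farsb went from 250 and 254 CPM to 148 and 157 (1.66-fold lower; -0.73 ± 0.15; edgeR adjusted p = 0.00208). Within a library, which needs no scaling between libraries, there were 7.12 and 6.78 Farsb reads per Farsa read with ethanol and 2.49 and 2.23 with tamoxifen. This ratio does not remove the GC trend described below, and the transcripts differ in GC content (Farsa 56.6%, Farsb 46.3%). With the transcript GC trend removed, Farsa was at 0.42 and not called and Farsb at -0.44 and called lower. With the GC trend of the coding sequence removed, Farsa was at 0.54 and called higher and Farsb at -0.22 and not called. Gars, the glycyl enzyme of both compartments, fell from 415 and 471 CPM to 316 and 325 (-0.47 ± 0.15; edgeR adjusted p = 0.0254), and Tars, the threonyl enzyme, from 260 and 313 CPM to 204 and 224 (-0.42 ± 0.16; edgeR adjusted p = 0.0452).

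Among the cytosolic genes that did not pass, Vars, the valyl enzyme, had 181 and 165 CPM with ethanol and 244 and 210 with tamoxifen (log2 fold change 0.39 ± 0.15, SE; edgeR adjusted p = 0.0526). Nars, the asparaginyl enzyme, had 420 and 514 CPM against 335 and 387 (-0.37 ± 0.16; edgeR adjusted p = 0.0828), and Qars, the glutaminyl enzyme, 127 and 138 against 153 and 181 (0.33 ± 0.15; edgeR adjusted p = 0.0934). Aars, for alanyl-tRNA synthetase, had 476 and 571 CPM with ethanol and 654 and 653 with tamoxifen (0.32 ± 0.16; edgeR adjusted p = 0.117). Yars (0.00 ± 0.15), Cars (-0.05 ± 0.14), Hars (-0.08 ± 0.17), Wars (0.09 ± 0.14), Sars (0.11 ± 0.15), Lars (-0.25 ± 0.17) and Mars (0.29 ± 0.17), for the tyrosyl, cysteinyl, histidyl, tryptophanyl, seryl, leucyl and methionyl enzymes, gave differences of under 2 SE. A p above the threshold does not show that these genes were the same in both treatments.

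The smaller cytosolic calls were not all kept when 1 library was left out. Such a fit leaves 1 library in a group, so a call can end though the log2 fold change hardly moves. Eprs lost its call when ethanol replicate 2 (-0.32) or either tamoxifen library (-0.45 and -0.60) was left out, and so did Gars (-0.37, -0.45 and -0.49) and Tars (-0.27, -0.36 and -0.49). Iars lost its call without tamoxifen replicate 2, with its value unchanged (-0.66). Calls appeared without ethanol replicate 1 for Lars (-0.42), Nars (-0.51), Rars (-0.57) and Vars (0.46), without ethanol replicate 2 for Aars (0.47) and Mars (0.53), and without tamoxifen replicate 2 for Rars (-0.71). Dars, Farsa and Farsb stayed called without any 1 library. Scaled by total counts, 4 cytosolic genes were higher and 3 lower, and the class median turned from -0.07 to 0.06 while that of all genes moved from -0.01 to 0.12. Relative to all genes the class stood at -0.06 under both scalings. Of all called genes 48.4% were higher with TMM factors and 61.8% with total counts.

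The mitochondrial synthetases showed more increases. Of 16 genes, 6 rose and 3 fell, against 21.5% and 22.9% of all tested genes, and the median log2 fold change was 0.28, or 0.29 above that of all genes with TMM factors and with total counts. The groups did not overlap in CPM for 13 of the 16, against 74.0% of all tested genes. The genes that rose were Vars2, Cars2, Aars2, Sars2, Lars2 and Tars2, and those that fell were Yars2, Hars2 and Rars2.

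Vars2, the mitochondrial valyl enzyme, rose most of the 36 genes, from 26.4 and 23.2 CPM with ethanol to 44.9 and 49.1 with tamoxifen (1.90-fold; log2 fold change 0.92 ± 0.15, SE; edgeR adjusted p = 0.000727). Cars2, the cysteinyl enzyme, went from 11 and 12.8 CPM to 18 and 24.9 (1.8-fold; 0.85 ± 0.19; edgeR adjusted p = 0.00387). Its tamoxifen libraries differed more between themselves than its ethanol libraries, and the call ended without tamoxifen replicate 2 (0.60). Aars2, the alanyl enzyme, went from 22.1 and 22.7 CPM to 34.8 and 40.1 (0.74 ± 0.15; edgeR adjusted p = 0.00256). Sars2, the seryl enzyme, went from 25.0 and 18.5 CPM to 35.0 and 36.4 (0.73 ± 0.17; edgeR adjusted p = 0.00533). In each of these 4 genes the lower tamoxifen library lay above the higher ethanol library, as in 37.0% of all tested genes. Since the 4 were picked as called genes, this adds nothing to their calls.

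Lars2 and Tars2 rose less but were better covered. Lars2 went from 184 and 203 CPM with ethanol to 260 and 296 with tamoxifen (1.44-fold; log2 fold change 0.52 ± 0.15, SE; edgeR adjusted p = 0.0157), and was not called without tamoxifen replicate 2 (0.43). Tars2, the threonyl enzyme, went from 45.7 and 53.0 CPM to 70.8 and 69.0 (0.50 ± 0.15; edgeR adjusted p = 0.0158), and was not called without tamoxifen replicate 1 (0.48) or 2 (0.52). Lars2 alone gave 33.6 and 35.7% of all reads of the mitochondrial class with ethanol and 40.1 and 41.0% with tamoxifen.

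Yars2, the mitochondrial tyrosyl enzyme, fell from 38.3 and 39.7 CPM with ethanol to 25.5 and 25.8 with tamoxifen (1.52-fold; log2 fold change -0.60 ± 0.15, SE; edgeR adjusted p = 0.00618). Replicates lay close together in both groups and the groups were apart. Without tamoxifen replicate 1 (-0.60; edgeR adjusted p = 0.0523) or 2 (-0.61; adjusted p = 0.0526) the value stayed and the call ended. Hars2, the histidyl enzyme, had 21.6 and 17.0 CPM against 13.2 and 14.1 (-0.49 ± 0.18; edgeR adjusted p = 0.0379). Rars2, the arginyl enzyme, had 40.3 and 48.2 CPM against 30.6 and 34.5 (-0.45 ± 0.16; edgeR adjusted p = 0.0353). Both of these calls were lost with DESeq2 (-0.50 and -0.45), with upper-quartile factors (-0.43 and -0.39), with total counts (-0.37 and -0.32) and without either tamoxifen library. Hars2 had -0.45 and -0.54 in the latter, and -0.31 without ethanol replicate 1, where its call also ended. Rars2 had -0.37 and -0.53, and its call also ended without ethanol replicate 2 (-0.30).

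The 7 other mitochondrial genes did not pass. Pars2, the prolyl enzyme, had 8.27 and 7.33 CPM with ethanol and 10.3 and 11.1 with tamoxifen (log2 fold change 0.46 ± 0.18, SE; edgeR adjusted p = 0.0534), and was called without ethanol replicate 1 (0.55). Iars2 (-0.26 ± 0.15), Ears2 (0.26 ± 0.17), Fars2 (0.31 ± 0.21), Nars2 (-0.28 ± 0.19), Wars2 (-0.32 ± 0.22) and Mars2 (0.10 ± 0.19), for the isoleucyl, glutamyl, phenylalanyl, asparaginyl, tryptophanyl and methionyl enzymes, gave smaller differences for their error. Of these, Fars2 (0.54) and Nars2 (-0.47) were called without ethanol replicate 1 and Wars2 (-0.57) without ethanol replicate 2.

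**Figure D2:**
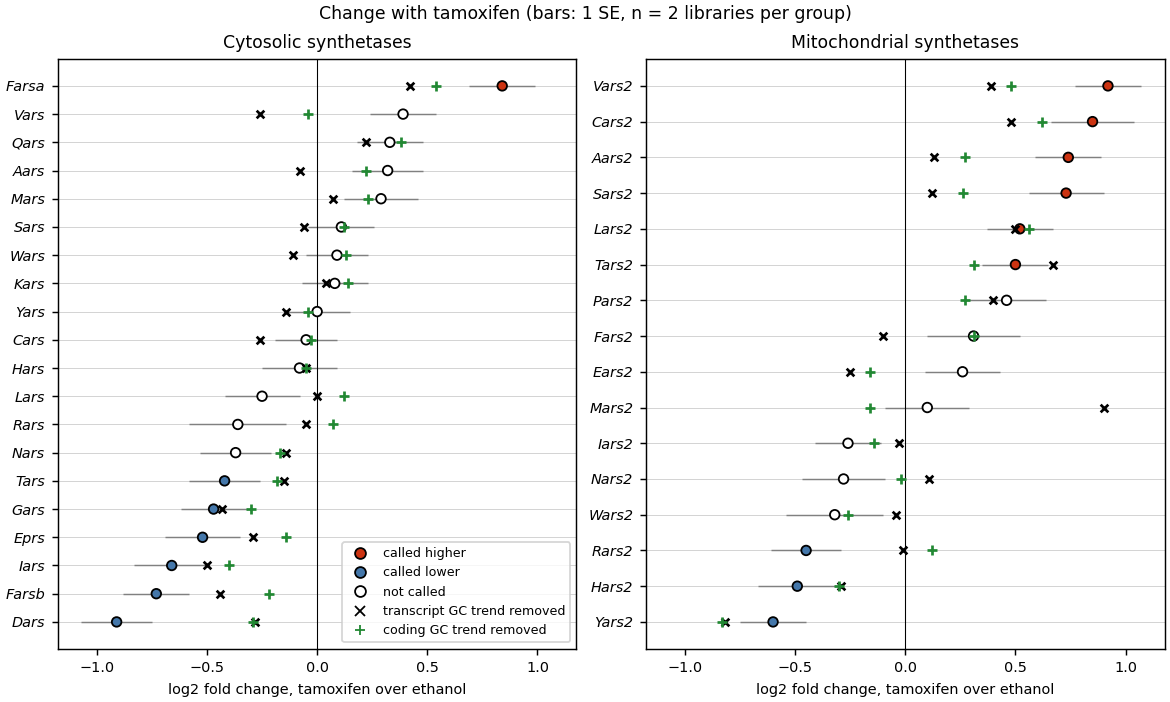
Log2 fold change of tamoxifen over ethanol (x axis) for each synthetase gene (y axis) with 1 SE, filled where called; crosses and plus signs give the change after removal of the trend with GC content of the whole transcript or of the coding sequence. Vars2 (0.92) and Dars (-0.91) are the extremes, and Lars2 and Yars2 keep their distance from 0 in all 3 fits.

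The balance between the classes was also read within each library, where the scale of the library cancels. There were 10 and 11 cytosolic synthetase reads per mitochondrial synthetase read with ethanol and 7.63 and 7.25 with tamoxifen. Such ratios do not remove the GC trend described below. Without Lars2 the ratios were 15.1 and 17.1 with ethanol and 12.7 and 12.3 with tamoxifen, lower in both tamoxifen libraries either way. The mitochondrial class held 0.0521 and 0.0547% of the reads in genes with ethanol and 0.0680 and 0.0749% with tamoxifen. The cytosolic class held 0.522 and 0.601% with ethanol and 0.519 and 0.543% with tamoxifen, so its shares of raw reads overlapped. With TMM factors the cytosolic sums did not overlap, at 5480 and 6250 CPM against 4940 and 5230, and the mitochondrial sums were 547 and 569 CPM against 648 and 721. How much of the shift in the ratio lies in each class thus depends on the scaling. With 2 libraries per group no permutation test of such a value can pass, and the sums lean on the most abundant genes, so this is a description.

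For 13 amino acids both compartments have a single gene in the set. The cytosolic to mitochondrial read ratio was lower in both tamoxifen libraries for 7 pairs, higher in both for 2 and overlapping for 4; for single genes, 74.0% of those tested had groups that did not overlap. The threonyl pair went from 5.69 and 5.90 Tars reads per Tars2 read with ethanol to 2.88 and 3.25 with tamoxifen. The cysteinyl pair went from 8.82 and 8.20 to 5.56 and 3.79, and the leucyl pair from 1.52 and 1.78 to 0.969 and 0.977. The tyrosyl pair went the other way, with 1.70 and 1.89 Yars reads per Yars2 read and then 2.75 and 2.73. In the tyrosyl pair the cytosolic gene was level, with 65.2 and 75.1 against 70.0 and 70.6 CPM, and the mitochondrial gene fell. The fold change of the cytosolic gene minus that of its partner was -0.92 log2 for threonine, -0.90 for cysteine, -0.77 for leucine and 0.61 for tyrosine, and with the GC trend removed -0.82, -0.74, -0.50 and 0.68. Removal of the trend moved the serine pair from -0.62 to -0.18, the tryptophan pair from 0.41 to -0.07 and the methionine pair, with its long Mars2 transcript, from 0.19 to -0.83. These differences were not tested.

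**Figure D3:**
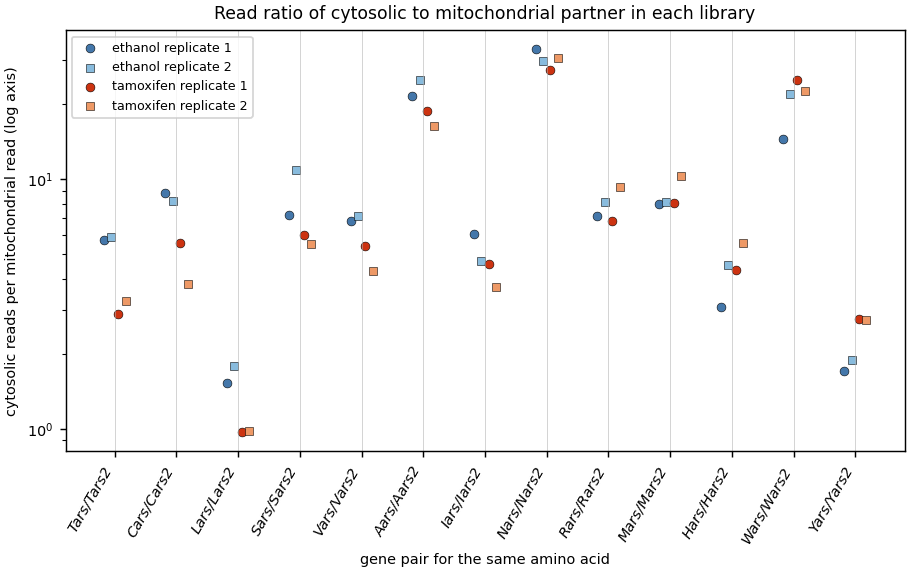
Reads of the cytosolic gene per read of the mitochondrial gene for the same amino acid (y axis, log scale) in each library, for 13 gene pairs ordered by the difference of their log2 fold changes. The threonyl pair on the left fell from 5.69 and 5.90 to 2.88 and 3.25, and the tyrosyl pair on the right rose from 1.70 and 1.89 to 2.75 and 2.73.

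The changes of both classes followed the GC content of the transcripts, as those of all genes did in these libraries. Of the 10 cytosolic genes with a GC content below the median of all tested genes (50.6%), 6 were lower and none higher, and of the 10 above it, 1 was higher and none lower. In the mitochondrial class the lower side held 1 increase and 2 decreases in 7 genes and the upper side 5 increases and 1 decrease in 9. Over all tested genes, 40.5% were lower and 4.96% higher below the median, and 38.2% were higher and 5.41% lower above it. Across genes, Spearman's rho between GC content and the log2 fold change was 0.869 over the 20 cytosolic genes, 0.653 over the 16 mitochondrial genes and 0.649 over all genes; genes share libraries and are not independent replicates. Dars has a GC content of 41.2%, and the genes of the lowest of 10 equal GC bins had a median log2 fold change of -0.74. Vars2 (58.6%), Aars2 (60%) and Sars2 (60.1%) lie in the highest bin, which had a median of 0.69.

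**Figure D4:**
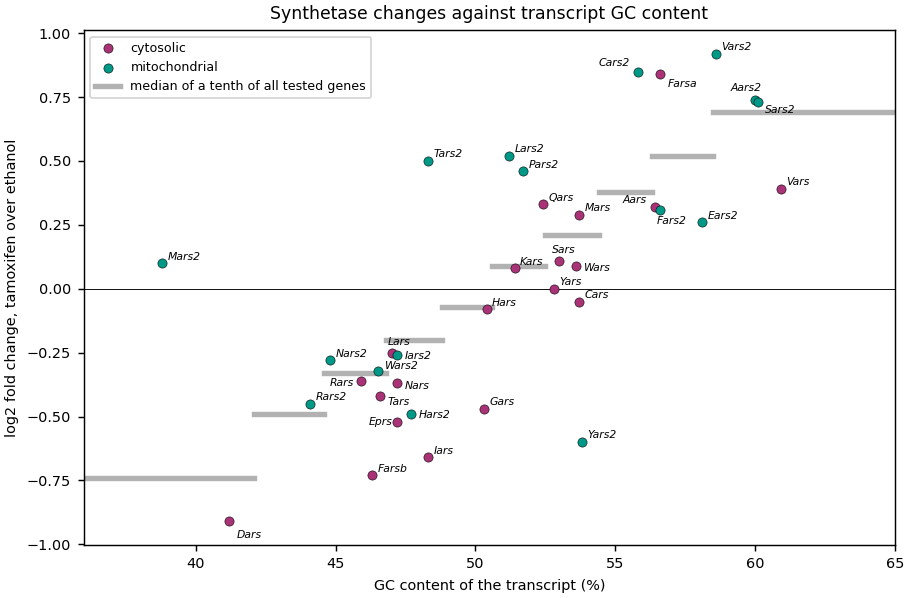
Log2 fold change of each synthetase (y axis) against the GC content of its transcript (x axis, 36 to 65% shown); grey bars give the median of each of 10 GC bins of all tested genes over its GC range, and the outer bins run on beyond the axis. Most synthetases lie near the bars, while Yars2 (-0.60 at 53.8%) lies below and Tars2 (0.50 at 48.3%) and Mars2 (0.10 at 38.8%) above.

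With each library's GC trend removed, 0 cytosolic genes were higher and 2 lower and 3 mitochondrial genes higher and 1 lower, against 9.93% of all tested genes higher and 9.85% lower, 19.8% together (edgeR quasi-likelihood test, adjusted p under 0.05). At the class level the medians were -0.13 and 0.12 in place of -0.07 and 0.28. Of the 16 calls 5 remained, in the same direction: Farsb (-0.44; edgeR adjusted p = 0.0412) and Iars (-0.50; adjusted p = 0.0412) among the cytosolic genes, and Lars2 (0.50; adjusted p = 0.0311), Tars2 (0.67; adjusted p = 0.00579) and Yars2 (-0.82; adjusted p = 0.00192) among the mitochondrial ones. The calls of Dars (-0.28), Eprs (-0.29), Farsa (0.42), Gars (-0.43), Tars (-0.15), Aars2 (0.13), Cars2 (0.48), Hars2 (-0.29), Rars2 (-0.01), Sars2 (0.12) and Vars2 (0.39) ended. The scaffold gene Eef1e1 was at -0.08. Mars2, not called without correction, was called higher (0.90; edgeR adjusted p = 0.00449), and its long annotated transcript has a GC content of 38.8% against 56.4% in the coding sequence.

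A second correction, chosen after seeing the data, used the GC content of the coding sequence, or of the transcript for genes without one. It called Farsa (0.54; edgeR adjusted p = 0.0223), Cars2 (0.62; adjusted p = 0.0352), Vars2 (0.48; adjusted p = 0.0308) and Lars2 (0.56; adjusted p = 0.0168) higher and Yars2 (-0.83; adjusted p = 0.00236) lower, and Mars2 was at -0.16 and not called. Tars2 (0.31), Farsb (-0.22) and Iars (-0.40) were not called with it. Only Lars2 and Yars2 were thus called in the same direction without correction and with both corrections. With the transcript GC trend removed, Yars2 stayed called without any 1 library (-0.75 to -0.90). Lars2 then lost its call when ethanol replicate 1 (0.39) or either tamoxifen library (0.58 and 0.40) was left out. Tars2 (0.64 and 0.69) and Farsb (-0.41 and -0.47) also lost their calls without tamoxifen replicate 1 or 2. Iars lost its call without ethanol replicate 1 (-0.29) and without tamoxifen replicate 1 (-0.50) or 2 (-0.49).

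Some counts may include reads of other genes, since the strand setting of the counting is not given in the sources used here. In the GRCm38 annotation, used only for such lengths and names, Iars2 shares 2034 of 5471 transcript bases with Rab3gap2 on the opposite strand, Cars2 shares 425 of 1902 with Naxd and Mars shares 67 with Ddit3 (runs of at least 50 identical bases). Aars shares 1326 of 5750 bases with Exosc6 on its own strand, and Iars shares 1161 of 4426 with Gm4849, whose exons do not overlap those of Iars. On the opposite strand, Farsb shares 250 of 2036 bases with Sgpp2 and Vars2 shares 299 of 4425 with Gm20483. Hars and Hars2, on opposite strands, share 195 bases. Lars2 shares 52 of 3894 bases with Gm15564 on its own strand. Yars2, Tars2, Dars and Farsa share no run of that length with another gene. The part of shared reads in the results was not tested.

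Other genes of the amino acid response did not move in 1 direction. Of 32 genes of the ATF4 list 3 were higher and 7 lower, with a median log2 fold change of 0.00, against 21.5% of all tested genes higher and 22.9% lower. With the GC trend removed 3 were higher and 6 lower, against 9.93% and 9.85% of all tested genes, and the median was -0.25. Atf4 itself had 365 and 275 CPM with ethanol and 309 and 278 with tamoxifen (-0.12 ± 0.17, SE), with overlapping groups; with the GC trend removed and without ethanol replicate 2 it was called lower (-0.50). Asns, which makes asparagine and is a standard ATF4 target, fell from 404 and 444 CPM to 233 and 273 (-0.74 ± 0.16; edgeR adjusted p = 0.00278; not called at -0.64 without tamoxifen replicate 1, and at -0.41 with coding GC removed). Psat1, of serine synthesis, fell by 1.27 log2 and Cth, of cysteine synthesis, by 1.56, while Sesn2, an inhibitor of mTORC1, rose by 1.46, and these 3 calls held with the GC trend removed (-1.11, -1.14 and 0.91). Trib3 (0.09; -0.42 with the GC trend removed) and Chac1 (0.48, edgeR adjusted p = 0.0507) did not pass. Ddit3 was higher (0.48 ± 0.17; edgeR adjusted p = 0.0316), a call lost without tamoxifen replicate 1 (0.59) or 2 (0.36), with DESeq2 (0.48) and with the GC trend removed (0.15).

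Of 11 mitochondrial translation factors 1 was higher and 2 lower, against 21.5% and 22.9% of all tested genes. Once the GC trend was removed 1 was higher and 1 lower, against 9.93% and 9.85%. Tufm, the elongation factor that carries charged tRNA to the mitochondrial ribosome, went from 36.5 and 40.4 CPM with ethanol to 65.7 and 72.5 with tamoxifen (log2 fold change 0.84 ± 0.15, SE; edgeR adjusted p = 0.000977; 0.48 and still called with the GC trend removed, a call then lost when ethanol replicate 1, 0.35, or either tamoxifen library, 0.54 and 0.41, was left out). Guf1, a ribosome-binding GTPase of mitochondria, fell by 1.14 (-0.59 with the GC trend removed, then not called without tamoxifen replicate 1, -0.71, or 2, -0.48). The release factor gene Mtrf1 fell by 0.64 (-0.30, not called with the GC trend removed; -0.46 without ethanol replicate 2 and -0.54 without tamoxifen replicate 1, not called). The 3 subunits of the amidotransferase that makes mitochondrial glutaminyl-tRNA, Gatb (-0.16), Gatc (-0.77) and Qrsl1 (-0.14), did not pass. Gatc had 81.1 and 26.8 CPM in the ethanol libraries against 33.7 and 29.1, and was at -1.36 and called without ethanol replicate 2 and at 0.23 without ethanol replicate 1.

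Of 16 genes that process or modify mitochondrial tRNA in the files, 1 was higher and 4 lower, against 21.5% and 22.9% of all tested genes. Once the GC trend was removed 1 was higher and 1 lower, against 9.93% and 9.85%. Osgepl1, which modifies tRNA beside the anticodon, fell by 1.33 log2 (-0.82 with the GC trend removed, then -0.71 and not called without tamoxifen replicate 2). Trmt10c, a subunit of mitochondrial RNase P, fell by 0.94 and the tRNA methyltransferase gene Trmt5 by 0.55, both not called with the GC trend removed (-0.38 and -0.12). Trmt5 was also not called without tamoxifen replicate 1 (-0.42). Of 5 genes for transcription of mitochondrial DNA 1 was higher and 1 lower. None was called with the GC trend removed, against 19.8% of all tested genes. The polymerase gene Polrmt rose (0.81; 0.15 and not called with the GC trend removed) and Tfam fell (-0.50; -0.12), while Tfb2m did not pass (-0.42; 0.11; called at -0.60 without ethanol replicate 2). Tfam was not called without tamoxifen replicate 1 (-0.42) or 2 (-0.59).

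On the cytosolic side, 6 of 22 genes of RNA polymerase III and its factors, which transcribe tRNA genes, were higher and 5 lower. These counts are close to the 21.5% and 22.9% of all tested genes. Once the GC trend was removed 0 were higher and 1 lower, against 9.93% and 9.85%. Polr3gl, for a variant subunit, fell by 1.1 log2 (-1.22 with the GC trend removed). Polr3k fell by 1.04 and the TFIIIC subunit gene Gtf3c3 by 0.79, both not called with the GC trend removed (-0.39 and -0.17). Of 6 cytosolic elongation factor genes 1 rose: Eef2, which drives translocation on the ribosome, went from 2010 and 2230 CPM to 3110 and 3310 (0.60 ± 0.16, SE; edgeR adjusted p = 0.0086), not called with the GC trend removed (0.15) or without tamoxifen replicate 1 (0.64) or 2 (0.56). Eif5a (0.30) and Eef1b2 (-0.20) did not pass.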

How the data were processed

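Poly(A) RNA-seq libraries of 2 ethanol and 2 tamoxifen samples were compared. The authors deposited raw counts per gene symbol with 5 summary lines, which were left out of all tests and library sizes; the share of reads in no gene was 40.8 to 51.7% with ethanol and 35.0 to 37.6% with tamoxifen. The submitters' processing notes list build mm9, DESeq2, HTSeq, Bowtie 1.1.1 and CASAVA 1.8.2; no source used here gives the annotation or the strand setting. All 14479 genes kept by filterByExpr (minimum count 10) entered the edgeR 4.0.16 quasi-likelihood test (robust, TMM, group as the only term; R 4.3.3), with Benjamini-Hochberg adjustment over all of them and a threshold of 0.05. SE is the absolute log2 fold change divided by the root of F, and positive values are higher with tamoxifen. To remove the GC trend, loess (span 0.5, degree 1) on GC content was fitted in each library to the difference between a gene's log2 CPM and its mean, and entered as an offset. Transcript GC content and length came from the GENCODE annotation of GRCm38 (23535 of 24428 symbols matched directly, 524 by synonym); no coordinates were carried between builds. Alternatives were other scalings, filters and thresholds, DESeq2 1.42.0, limma voom 3.58.1, the replicate number as a block, GC correction, and leaving out each library, which lets the lone library borrow the spread of the other group. Replicates were distinct libraries: a chi-square over genes gave 37.0 (ethanol) and 10.5 (tamoxifen) per degree of freedom. The procedure was also run on simulated counts without a GC trend between treatments, which cannot show how it behaves under such a trend. The members and lists were chosen with earlier results of these data known. Named genes were the 36 synthetases, the 3 genes of each other list with the smallest adjusted p, and Aimp1, Aimp2, Eef1e1, Atf4, Asns, Chac1, Trib3, Ddit3 and Smarca4.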

Additional observations from a re-analysis of the deposited data

How the results depend on the processing

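Each result was recomputed under 20 alternatives, 1 of them (GC content of the coding sequence) chosen after seeing the data. Over the 36 synthetases these gave 720 values, with 113 calls lost and 34 gained where the sign was kept. There were 76 changes of sign, 4 of them in a called gene. These 4, in Rars2 and Sars2, are not among the 113. Tested genes called numbered 3806 at an adjusted p under 0.01, 2864 with GC correction, 3309 with coding GC correction and 829 to 7326 when 1 library was left out, with or without GC correction. Cytosolic genes higher (1 as reported) numbered 3 with upper-quartile factors, 4 with total counts, 2 with the stricter filter and with limma voom, 5 with the replicate block, 0 with GC correction and 0 to 3 without 1 library. Cytosolic genes lower (6) numbered 3 with total counts and at 0.01, 2 with GC correction, 0 with coding GC and 0 to 9 without 1 library. Mitochondrial genes higher (6) numbered 3 with either GC correction and 1 to 8 without 1 library. Mitochondrial genes lower (3) numbered 1 with upper-quartile factors, total counts, DESeq2, the 0.01 threshold and each GC correction, and 0 to 3 without 1 library. The cytosolic median was 0.06 with total counts and -0.27 to 0.03 without 1 library, and the mitochondrial median 0.07 to 0.34. The cause of these changes was not tested. GC correction removes any change that follows GC content, and whether that trend is technical or biological was not tested. Same-numbered libraries deviated together weakly (correlation 0.268) and the labels do not say that a number marks a shared batch. The replicate block called 8087 genes, and with GC correction 5018. Among those 5018 were 1 cytosolic gene higher and 4 lower, and 5 mitochondrial genes higher and 1 lower. The log2 fold change took the other sign for these genes, most of them not called: with GC correction, Aars -0.08, Sars -0.06, Vars -0.26, Wars -0.11, Yars -0.14, Ears2 -0.25, Fars2 -0.10, Nars2 0.11, Aimp2 -0.18, Trib3 -0.42, Eif5a 0.00, Eef1b2 0.10, Tfb2m 0.11. Likewise with GC correction and the replicate block, Aars -0.07, Lars 0.01, Sars -0.05, Vars -0.27, Wars -0.11, Yars -0.14, Ears2 -0.26, Fars2 -0.10, Nars2 0.12, Aimp2 -0.17, Trib3 -0.42, Eif5a -0.02, Eef1b2 0.10, Tfb2m 0.13. Likewise with upper-quartile factors, Cars 0.01. Likewise with total counts, Cars 0.07, Hars 0.05, Atf4 0.00. Likewise with coding GC correction, Lars 0.12, Rars 0.07, Vars -0.04, Yars -0.04, Ears2 -0.16, Mars2 -0.16, Rars2 0.12, Aimp1 0.01, Aimp2 -0.05, Trib3 -0.37, Eef1b2 0.15, Qrsl1 0.12, Tfam 0.00, Tfb2m 0.06. Likewise with no filter on low counts, Yars -0.01. Over the fits without 1 library, genes that took the other sign at least once ranged as follows: Aars -0.27 to 0.47, Cars -0.37 to 0.01, Hars -0.33 to 0.16, Kars -0.04 to 0.12, Lars -0.42 to 0.19, Mars -0.17 to 0.53, Nars -0.51 to 0.01, Rars -0.71 to 0.22, Sars -0.18 to 0.19, Vars -0.39 to 0.50, Wars -0.20 to 0.13, Yars -0.28 to 0.12, Ears2 -0.34 to 0.33, Fars2 -0.29 to 0.54, Iars2 -0.43 to 0.11, Mars2 -0.07 to 1.04, Nars2 -0.47 to 0.33, Rars2 -0.56 to 0.09, Sars2 -0.01 to 0.96, Wars2 -0.57 to 0.23, Aimp1 -0.67 to 0.14, Aimp2 -0.30 to 0.24, Eef1e1 -0.62 to 0.07, Atf4 -0.50 to 0.10, Chac1 -0.09 to 0.57, Trib3 -0.46 to 0.21, Eif5a -0.31 to 0.56, Eef1b2 -0.31 to 0.19, Gatc -1.36 to 0.30, Gatb -0.38 to 0.21, Qrsl1 -0.28 to 0.12, Tfb2m -0.60 to 0.35, Amn -0.10 to 1.11.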
